A study of Mus musculus with 12 samples.

Results

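Scavenger and efferocytosis receptors were followed in brain tissue through 10 genes chosen by name: Mertk, Axl, Gas6, Pros1, Msr1, Marco, Cd36, Scarb1, Stab1 and Lrp1. All 10 were found by symbol in each of the 12 expression tables, which list 25749 genes. Efferocytosis is the engulfment of dying cells by phagocytes. The kinases Mertk and Axl do not bind the dying cell themselves: the secreted ligands Gas6 and Pros1 bridge them to phosphatidylserine exposed on its surface. Scavenger receptors (Msr1, Marco, Cd36, Scarb1 and Stab1) bind modified lipoproteins and other polyanionic or lipid ligands, and Lrp1 is a large endocytic receptor for apolipoprotein E, protease-inhibitor complexes and calreticulin on dying cells. In brain these genes are used by microglia, border macrophages, astrocytes and vascular cells, so none of them marks a single cell type.

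The tissue came from male B6 mice aged 13 weeks in 3 groups of 4, and the labels call each sample a biological replicate. One group was uninjured. The others had a cerebrovascular injury, either alone (injured) or with continuous αLFA1/VLA4 (antibody-treated), antibodies to integrins by which leukocytes exit vessels. At day 20 after injury the mice were perfused with saline and a cube with edges of 3 mm was taken. The labels describe the cube as injured tissue and do not say which region was taken from uninjured mice. They give no control antibody group, so the antibody and its administration cannot be told apart.

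Exon reads per library ranged from 13330379 to 16121577, lowest in the antibody-treated group. Of these, the mitochondrial genome took 10.3 to 12% in uninjured, 4.75 to 7.99% in the injured and 8.83 to 11% in antibody-treated libraries. Levels are given as normalised CPM (exon reads relative to the TMM-adjusted library size) within a gene, and between genes as TPM, which also divides by exon length. Sums over marker lists are in TPM too. On log2(TPM + 0.1) the median of all tested genes differed by 0.18 between injured and uninjured and by -0.15 between antibody-treated and injured mice. Group differences of that size in a sum may reflect the scale. All 9 microglia markers were detected, with a summed level of 376 to 476 TPM, and several other marker lists moved with the groups. In antibody-treated mice all 8 skeletal muscle markers were higher than in either other group, with a summed level of 162 to 198 TPM against 14.3 to 20.0 in uninjured and 19.9 to 26.7 in injured mice. All 5 tested red blood cell genes were also higher there than in either other group, with 573 to 948 TPM against 132 to 173 and 188 to 216 over the 6 listed. Markers of the thalamus summed to 81.9 to 91.6 TPM in uninjured, 139.9 to 154 in the injured and 124 to 148 in antibody-treated libraries. The part of these differences in the results below was not tested. In bulk tissue, fewer cells of a type and less RNA per cell cannot be told apart.

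The 10 genes spanned a wide range of abundance. In uninjured mice Gas6 had the highest level with 94.9 ± 4.29 TPM (SD, n = 4), followed by Lrp1 with 48.9 ± 6.96, Axl with 29.9 ± 1.32, Mertk with 21.5 ± 2.14 and Scarb1 with 19.4 ± 0.428. Pros1 stood at 11.9 ± 1.20 TPM, Stab1 at 4.61 ± 0.290, Cd36 at 0.843 ± 0.178 and Msr1 at 0.364 ± 0.0705. Mertk and Scarb1 overlapped between libraries in all 3 groups, and their means changed places in both injured groups. In antibody-treated mice Lrp1 also overlapped Axl, and Mertk overlapped Pros1. The other neighbours in this order stayed apart within each group, although the highest Mertk and the lowest Axl value of antibody-treated mice were both 25.3 TPM. Marco was the exception at the bottom: its exons held 0 reads in the 8 uninjured and injured libraries and 1 read in antibody-treated replicate 3. With 3 reads over a group taken as the limit that a count of 0 allows, a level of up to 0.050 CPM in uninjured and 0.0460 CPM in injured mice would have gone unseen. This limit covers counting error only. Marco, a collagenous receptor of resident macrophages in lung, spleen and liver, was therefore not tested.

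**Figure D1:**
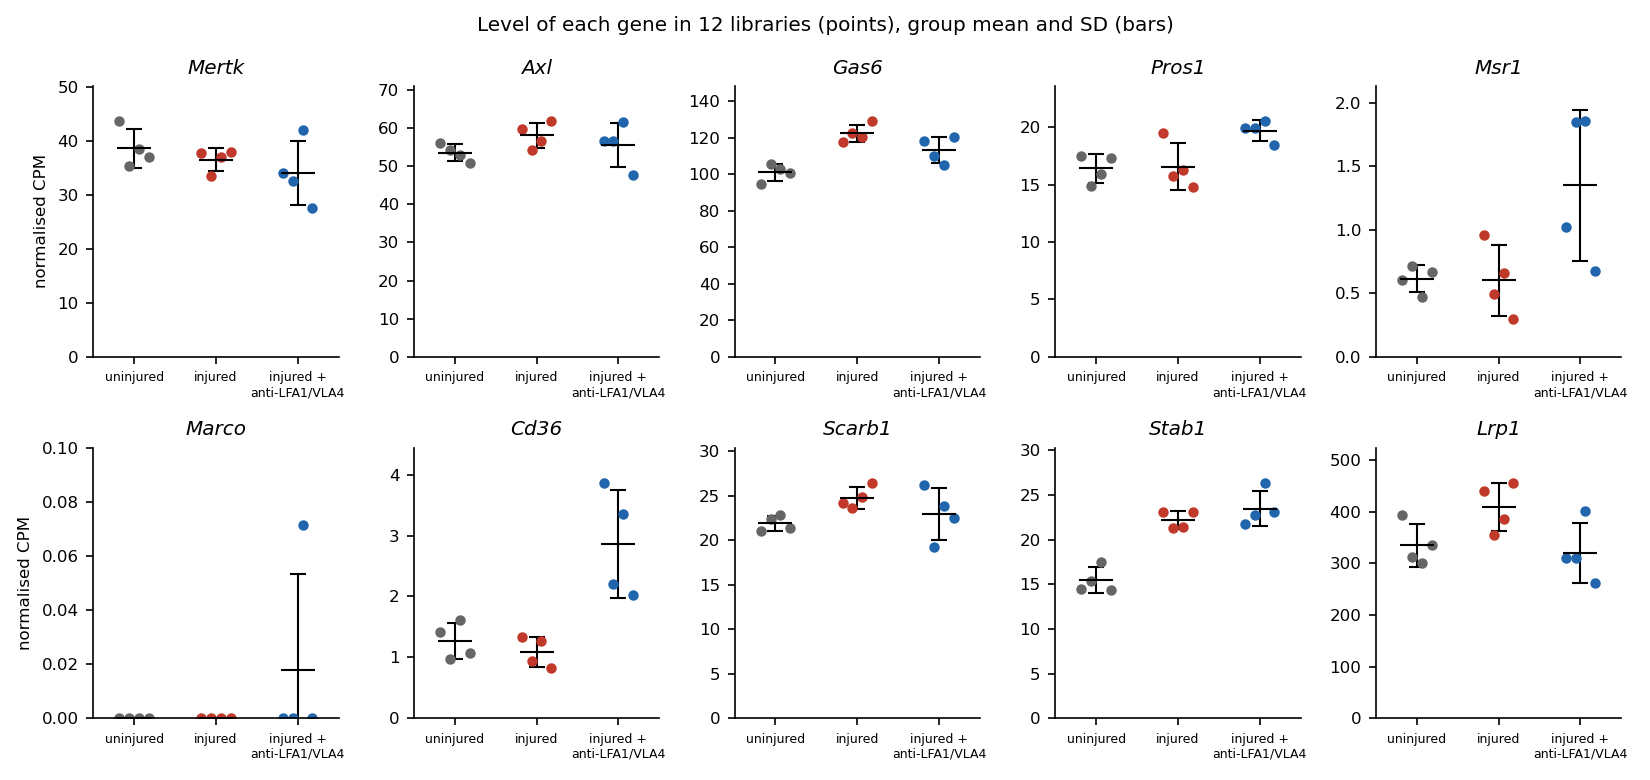
Normalised CPM of each of the 10 genes on a linear axis from 0, with 1 point per library, and the mean and SD of the 4 libraries of a group as bars. Stab1 lies higher in both injured groups than in uninjured mice, the 4 antibody-treated libraries lie above the other 8 for Cd36, and Marco has a single read in 1 library.

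The 3 comparisons were injured against uninjured, antibody-treated against uninjured, and antibody-treated against injured mice. Each pair of comparisons shares a group of 4 libraries, so their results are not independent of each other. Of the 9 tested genes, Gas6 and Stab1 were higher after injury than in uninjured mice (edgeR quasi-likelihood test, Benjamini-Hochberg adjusted p under 0.05), a test that called 11.9% of all 14771 genes higher. Cd36 and Stab1 were higher in antibody-treated than in uninjured mice, where 6.3% of all genes were called higher. Cd36 and Msr1 were higher in antibody-treated than in injured mice, where 10.9% of all genes were called higher. None of the 9 was called lower by edgeR, DESeq2 or limma voom in any comparison, against 11% of all genes called lower by edgeR for injured against uninjured, 3.22% for antibody-treated against uninjured and 10.7% for antibody-treated against injured. At an unadjusted p under 0.05, 0, 0 and 1 of the 9 were lower in the same order. The median log2 fold change of the 9 was 0.12, 0.17 and -0.06, beside 0.03, 0.01 and 0.01 over all genes tested. With 2 of 9 called in each comparison, nothing is read from the count as a property of the set.

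**Figure D2:**
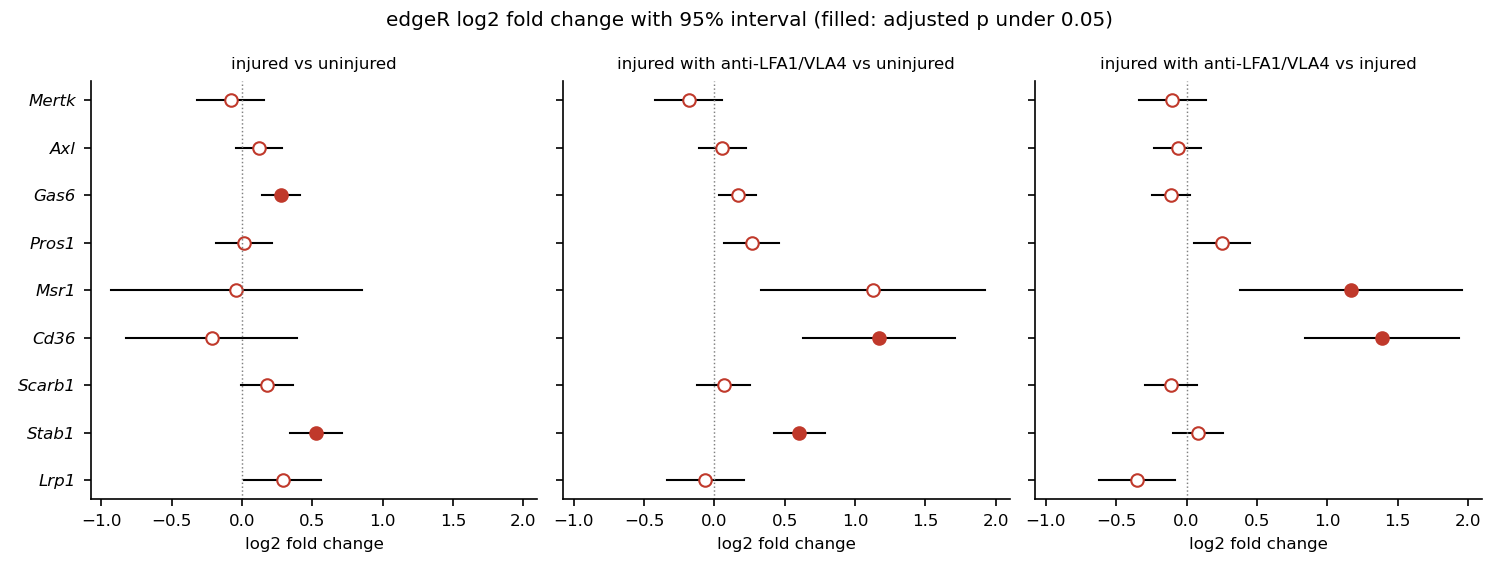
Log2 fold change (x axis) of the 9 tested genes in the 3 comparisons, with the 95% interval as a line. Filled points passed an adjusted p of 0.05. They are Gas6 and Stab1, then Cd36 and Stab1, then Msr1 and Cd36, and the interval of Msr1 is the widest in every panel.

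The bases before the transcription start are shown for the 3 genes that rose and have an entry in the RefSeq promoter table for GRCm38.p6: Gas6 and Stab1, which rose after injury, and Cd36, which rose with the antibodies. Msr1 and Scarb1 were not among the entries, which cover 8 of the 10 genes. Each window holds 250 bases and runs 5′ to 3′ on the gene's own strand, the minus strand for all 3. Capitals mark every match to the GC box core GGGCGG or its reverse complement CCGCCC, and to GAGGAA or its reverse complement TTCCTC, a purine-rich core of the kind bound by ETS factors such as the myeloid factor PU.1.
Gas6 (chr8:13494536-13494785): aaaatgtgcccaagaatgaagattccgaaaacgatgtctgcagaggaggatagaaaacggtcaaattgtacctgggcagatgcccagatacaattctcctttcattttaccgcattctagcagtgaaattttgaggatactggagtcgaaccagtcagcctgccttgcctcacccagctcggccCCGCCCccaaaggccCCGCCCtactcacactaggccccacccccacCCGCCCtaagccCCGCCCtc
Stab1 (chr14:31168642-31168891): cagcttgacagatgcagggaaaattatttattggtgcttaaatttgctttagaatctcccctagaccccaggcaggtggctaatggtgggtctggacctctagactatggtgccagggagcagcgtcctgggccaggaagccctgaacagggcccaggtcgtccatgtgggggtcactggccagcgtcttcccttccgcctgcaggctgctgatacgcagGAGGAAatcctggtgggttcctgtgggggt
Cd36 (chr5:17835897-17836146): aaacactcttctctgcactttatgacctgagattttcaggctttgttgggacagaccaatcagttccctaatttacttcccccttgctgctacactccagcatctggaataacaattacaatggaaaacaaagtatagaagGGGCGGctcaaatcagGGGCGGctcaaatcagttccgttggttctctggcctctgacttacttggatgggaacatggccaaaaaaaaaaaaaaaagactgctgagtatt
The Gas6 window holds 4 GC box matches and no GAGGAA match, the Stab1 window 1 GAGGAA match and no GC box match, and the Cd36 window 2 GC box matches and no GAGGAA match. Both matches in the Cd36 window head the same stretch of sequence, GGGCGGctcaaatcag, which is repeated in tandem. Of the 32851 windows of this length in the table, 32.7% hold a GC box match and 23.3% a GAGGAA match, so neither sets these genes apart. The windows hold 10 CpG sites (Gas6), 5 (Stab1) and 3 (Cd36), where the median window has 6. The Cd36 window lies inside the annotated gene, whose 5′-most start is further upstream, and which start was used in this tissue was not measured.

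Gas6, the bridging ligand that engages both kinases (GRCm38 chr8:13465374-13494490, minus strand), rose after injury. Its level was 94.8, 105, 103 and 101 CPM in the uninjured libraries, 118, 123, 120.4 and 129 CPM in the injured libraries, and 118, 109.8, 105 and 121 CPM in the antibody-treated libraries. Every injured library lay above every uninjured one, and the antibody-treated libraries overlapped both groups. The rise was 1.21-fold, a log2 fold change of 0.28 (SE 0.06, edgeR adjusted p = 0.0106). Antibody-treated mice differed from uninjured by a log2 fold change of 0.17 (adjusted p = 0.106) and from injured by -0.11 (adjusted p = 0.219), and neither difference passed. Without antibody-treated replicate 3, the first of these was 0.19 with an adjusted p = 0.0349. The second passed as lower on intron reads (-0.50, adjusted p = 0.0268) and with limma on log2(TPM + 0.1) and log2(TPM + 1) (both -0.26, adjusted p = 0.0109 and 0.0105). The rise after injury did not pass on junction reads (0.25, adjusted p = 0.253) or intron reads (0.054, adjusted p = 0.875). The exons of Gas6 hold 56.6% G and C bases, a share higher than in 87.8% of genes in the tables. With each library's trend over GC content and transcript length removed, the difference between injured and uninjured mice was -0.06 (adjusted p = 0.235). That setting also took out each library's mean shift on top of TMM. Among all genes it moved the calls from 51.9% to 12.9% higher and the median log2 fold change from 0.03 to -0.09. Of 27 alternative settings, 24 kept the rise of Gas6 after injury and 2, junction and intron reads, lost its call. The remaining 1, with the GC and length trend removed, changed its sign. The part of GC content in that change was not tested. The 3′ end of Gas6 overlaps Tmem255b on the opposite strand, and no source here says if counting was strand-aware. The genes whose log2 CPM followed Gas6 most closely over the 12 libraries were Vwa1 (Pearson r = 0.99) and Hapln2 (r = 0.98), both extracellular matrix proteins.

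Pros1, protein S, is the second bridging ligand and also an anticoagulant cofactor (chr16:62854307-62929346, plus strand). It was measured at 17.5, 14.9, 15.9 and 17.3 CPM in uninjured, 19.5, 15.7, 16.3 and 14.8 CPM in the injured and 19.9, 20.0, 20.5 and 18.5 CPM in antibody-treated libraries. All 4 antibody-treated libraries lay above the uninjured ones, and injured replicate 1 overlapped them. The log2 fold change was 0.01 for injured against uninjured (adjusted p = 0.924), 0.26 for antibody-treated against uninjured (SE 0.09, adjusted p = 0.0888) and 0.25 for antibody-treated against injured (SE 0.09, adjusted p = 0.0664). None passed. The last passed without injured replicate 1 (0.36, adjusted p = 0.0114) and without the libraries at both ends of the first principal component (0.28, adjusted p = 0.0467), and the second with library size alone as the scaling (0.32, adjusted p = 0.0396). The closest genes over the libraries were Cklf and Il33 (r = 0.92 and 0.91).

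Mertk (chr2:128698956-128802894, plus strand), the receptor most used by microglia and macrophages for routine clearance, and Axl (chr7:25757273-25788705, minus strand), known to be induced by inflammation, passed in no comparison. Mertk was at 43.6, 35.4, 38.5 and 37.0 CPM in uninjured, 37.8, 33.5, 37.0 and 38 CPM in the injured and 34.1, 32.5, 42.0 and 27.5 CPM in antibody-treated libraries. All 3 groups overlapped, and the antibody-treated group spread the most. The 95% interval of the log2 fold change was -0.32 to 0.16 for injured against uninjured, -0.42 to 0.06 for antibody-treated against uninjured and -0.34 to 0.14 for antibody-treated against injured. Without antibody-treated replicate 3, Mertk was lower in antibody-treated than in uninjured mice (log2 fold change -0.30, adjusted p = 0.0308).

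Axl stood at 56.1, 54.1, 52.9 and 50.7 CPM in uninjured, 59.7, 54.3, 56.6 and 61.7 CPM in the injured and 56.6, 56.5, 61.6 and 47.7 CPM in antibody-treated libraries. Its groups overlapped as well, with log2 fold changes of 0.12 (95% interval -0.05 to 0.29), 0.06 (-0.11 to 0.22) and -0.06 (-0.23 to 0.10) in the same order of comparisons. Across both receptors and all 3 comparisons the intervals run from -0.42 to 0.29. Sbf2 was among the genes that followed Mertk most closely (r = 0.96), and Axl followed Sall2 and Gpr107 (r = 0.93 and 0.91).

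The balance of the receptors and of the ligands was compared within each library, where library scaling cancels. The mean log2 ratio of Axl to Mertk TPM was 0.48 ± 0.10 (SD, n = 4) in uninjured, 0.67 ± 0.04 in the injured and 0.72 ± 0.11 in antibody-treated mice. The difference between injured and uninjured mice was 0.20. Its p was the smallest that 4 libraries against 4 can give in an exact two-sided permutation test (p = 0.0286). All 4 injured log2 ratios lay narrowly above the 4 uninjured ones (lowest 0.621 against highest 0.619). Adjusted over the 6 ratio comparisons, the difference did not pass (adjusted p = 0.114). At the smallest possible p, 1 comparison alone cannot reach 0.05 after this adjustment. The other differences were 0.25 (antibody-treated against uninjured, exact permutation p = 0.0571, adjusted p = 0.114) and 0.05 (against injured, adjusted p = 0.457). The mean log2 ratio of Gas6 to Pros1 was 3.00 ± 0.17 in uninjured, 3.26 ± 0.22 in the injured and 2.90 ± 0.15 in antibody-treated mice. Its differences were 0.27 (exact permutation, adjusted p = 0.171), -0.10 (adjusted p = 0.457) and -0.37 (adjusted p = 0.114). No ratio passed. Since no comparison could pass by itself with 4 libraries per group, this is not read as an unchanged balance.

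Stab1 encodes a stabilin, a scavenger receptor of sinusoidal endothelium and of tissue macrophages (chr14:31139013-31168641, minus strand). It rose in both injured groups. The level was 14.5, 15.4, 17.5 and 14.4 CPM in uninjured, 23.1, 21.3, 21.4 and 23.1 CPM in the injured and 21.7, 22.8, 26.4 and 23.1 CPM in antibody-treated libraries. All 8 libraries of injured mice lay above all 4 uninjured ones, while the injured groups overlapped each other. Stab1 rose 1.44-fold after injury (log2 fold change 0.53, SE 0.08, edgeR adjusted p = 0.00256). It rose 1.52-fold in antibody-treated against uninjured mice (0.61, SE 0.09, adjusted p = 0.000506). Between the injured groups the log2 fold change was 0.08 (95% interval -0.10 to 0.26, adjusted p = 0.527). With the GC and length trend removed that last difference became 0.35 (adjusted p = 0.0109), and the exons of Stab1 hold 57.3% G and C bases. The rise after injury did not pass on junction reads alone (0.46, adjusted p = 0.0653) or on intron reads (0.21, adjusted p = 0.682), which number 82 over the uninjured and 104 over the injured group. The rise in antibody-treated against uninjured mice did not pass on intron reads (0.61, adjusted p = 0.175).

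Marker lists are given beside Stab1, against 11.9% of all genes called higher and 11% lower after injury and 6.3% and 3.22% in antibody-treated against uninjured mice. The 8 border macrophage markers summed to 8.58 to 10.5 TPM in uninjured, 15.4 to 18.2 in the injured and 21.6 to 26.9 in antibody-treated libraries, with 1 of 8 higher after injury and 6 of 8 higher in antibody-treated than in uninjured mice. No marker of that list was at 0. Of the 8 fibroblast markers 5 were higher after injury and 6 in antibody-treated against uninjured mice. Of the 9 brain endothelium markers 1 was higher and 1 lower in each of these comparisons. After injury the counts of border macrophage and endothelium markers are near the share of all genes called. The part of these cell types in the Stab1 result was not tested. Stab1 followed Slc47a1 and Col6a2, a chain of type VI collagen, most closely (r = 0.98 and 0.97). The 3′ end of Stab1 overlaps Nt5dc2 on the opposite strand.

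Cd36, the class B receptor for long-chain fatty acids and oxidised lipoproteins (chr5:17781690-17888801, minus strand), rose in antibody-treated mice against both other groups, with the largest fold among the 9 genes. Its level was 1.41, 0.978, 1.61 and 1.07 CPM in uninjured, 1.34, 0.934, 1.26 and 0.828 CPM in the injured and 3.86, 2.21, 3.35 and 2.03 CPM in antibody-treated libraries. All 4 antibody-treated libraries lay above the other 8, and uninjured and injured libraries overlapped. These values rest on few reads, 14 to 24 per library in the first 2 groups and 27 to 53 in the third. Cd36 rose 2.25-fold against uninjured (log2 fold change 1.17, SE 0.25, edgeR adjusted p = 0.0101) and 2.62-fold against injured mice (1.39, SE 0.25, adjusted p = 0.00262). Injured and uninjured mice differed by -0.22 (95% interval -0.82 to 0.39, adjusted p = 0.591). Both rises passed in all 26 alternative settings in which Cd36 could be tested. The nearest genes over the libraries were Fgl2 and Emp1 (r = 0.92 and 0.91).

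Cd36 is known from fat, heart and skeletal muscle, capillary endothelium and macrophages, and no list of heart markers was used here. Skeletal muscle markers were higher in 8 of 8 and rose by log2 fold changes of 1.94 (Acta1) to 9.10 (Ckm) against injured mice. Of 7 adipocyte markers only Fabp4, which capillary endothelium also expresses, had enough reads to test, and it rose by 2.29 against injured and 2.18 against uninjured mice. Fabp4 had 16, 16 and 68 reads over the uninjured, injured and antibody-treated groups, so it passed the low-count filter mainly through the antibody-treated libraries. The summed adipocyte level was 1.14 to 2.02 TPM in uninjured, 1.18 to 2.31 in the injured and 3.06 to 5.32 in antibody-treated libraries. Fabp4 made up most of that difference, with a mean of 0.706, 0.717 and 3.30 TPM in the same order. Retn had 28, 30 and 27 reads over the groups, Plin1 2, 6 and 1, and Adipoq 3, 1 and 1. Lep was at 0 reads in all 12 libraries, and Cfd and Cidec were at 0 in the uninjured and injured groups. No brain endothelium marker passed in antibody-treated against injured mice, with a summed level of 249.8 to 281 TPM against 255 to 282. Of all genes 10.9% were called higher and 10.7% lower in that comparison. The part of muscle, fat and macrophages in the Cd36 result was not tested.

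Msr1, the class A scavenger receptor of macrophages (chr8:39581685-39642673, minus strand), was higher in antibody-treated than in injured mice. It was at 0.605, 0.717, 0.470 and 0.671 CPM in uninjured, 0.955, 0.498, 0.663 and 0.296 CPM in the injured and 1.02, 1.85, 1.85 and 0.676 CPM in antibody-treated libraries. Antibody-treated replicates 2 and 3 were high, and replicate 4 fell inside the range of the other groups. The log2 fold change was 1.17 against injured (SE 0.36, edgeR adjusted p = 0.0369), 1.13 against uninjured (SE 0.37, adjusted p = 0.0741) and -0.04 between injured and uninjured mice (SE 0.41, adjusted p = 0.951). The call rests on 5 to 26 reads per library. It was lost in 12 of 24 alternative settings, including the omission of uninjured replicate 2 or 4, injured replicate 2, 3 or 4, or antibody-treated replicate 2 or 3 (adjusted p up to 0.116). Against uninjured mice it passed without antibody-treated replicate 4 (1.34, adjusted p = 0.0284) and once the GC and length trend was removed (1.09, adjusted p = 0.0155).

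Some markers of blood-borne myeloid cells were higher in antibody-treated than in injured mice, where Msr1 and Cd36 were also called higher. All 3 tested neutrophil markers of 8 were higher in antibody-treated than in the injured and in uninjured mice. Over the uninjured, injured and antibody-treated groups S100a8 had 22, 32 and 226 reads and S100a9 28, 40 and 262. Such genes pass the low-count filter mainly through the antibody-treated libraries, so the count of 3 of 3 is not read as a result. The list summed to 34.5 to 57.0 TPM in antibody-treated, 6.28 to 8.25 in the injured and 3.25 to 5.54 in uninjured libraries, with Ly6g at 0 reads in all 12. Of the monocyte list, Ccr2 rose by a log2 fold change of 1.74 against injured mice. It had 30, 35 and 100 reads over the uninjured, injured and antibody-treated groups, so the same limit of the filter holds for it. The 7 monocyte markers summed to 21.4 to 29.7 TPM in antibody-treated, 15.3 to 21.3 in the injured and 9.49 to 12.6 in uninjured libraries. Most of that sum was S100a4, with a mean of 18.8, 14.9 and 6.95 TPM in the same order, while Vcan stood at 2.73, 2.44 and 3.16. After injury 1 of the 3 tested monocyte markers was called higher and 1 lower, and neither Msr1 nor Cd36 was called. Of the 9 microglia markers 3 were higher in antibody-treated than in injured mice, where 1 of the 3 tested monocyte markers, Ccr2, was called. In that comparison 10.9% of all genes were called higher, and 6.3% in antibody-treated against uninjured mice. The part of these cells was not tested. Over the libraries Msr1 followed Cklf and Cd53, a tetraspanin of leukocytes, most closely (r = 0.94 for both).

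Scarb1, the class B receptor that takes up cholesterol from high-density lipoprotein (chr5:125277087-125341094, minus strand), was measured at 21.0, 22.4, 22.8 and 21.4 CPM in uninjured, 24.1, 23.7, 24.9 and 26.5 CPM in the injured and 26.2, 19.3, 23.9 and 22.5 CPM in antibody-treated libraries. Injured libraries all lay above uninjured ones, but the difference did not pass (log2 fold change 0.18, SE 0.09, adjusted p = 0.142). It passed with library size alone as the scaling (0.26, adjusted p = 0.0459), where the median of all genes was 0.11, and on both log2 TPM scales (0.34 and 0.32, adjusted p = 0.0200 and 0.0202). The other comparisons gave 0.07 and -0.11 (adjusted p = 0.623 and 0.391). On the TPM scale Scarb1 was at 19.4 and Cd36, of the same receptor class, at 0.843 in uninjured mice. The nearest genes to Scarb1 were Krt2 and Irx3 (r = 0.90 and 0.89).

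Lrp1 (chr10:127538161-127621148, minus strand) had the most reads of the 10 genes, 3483 to 7699 per library, and passed in no comparison. It was at 393, 311, 300.1 and 336 CPM in uninjured, 439, 355, 385 and 456 CPM in the injured and 310.5, 309, 401 and 261 CPM in antibody-treated libraries. The groups overlapped, and the spread within each was wide for a gene of this depth. The log2 fold change was 0.29 for injured against uninjured (SE 0.13, adjusted p = 0.108), -0.06 for antibody-treated against uninjured (adjusted p = 0.755) and -0.35 for antibody-treated against injured (SE 0.13, adjusted p = 0.0621). The difference after injury passed with library size alone (0.37, adjusted p = 0.0453), on both log2 TPM scales (0.45 and 0.44) and without the libraries at both ends of the first principal component (0.35, adjusted p = 0.0404). The last passed with library size alone (-0.38, adjusted p = 0.0493), on both log2 TPM scales (both -0.51), without antibody-treated replicate 3 (-0.46, adjusted p = 0.00915), without uninjured replicate 1 (adjusted p = 0.0490) and without injured replicate 2 (adjusted p = 0.0490). Its closest genes over the libraries were Atxn2l and Abcc5 (both r = 0.98). The exon model of Lrp1 is 16426 bases long, longer than that of 99.7% of genes.

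**Figure D3:**
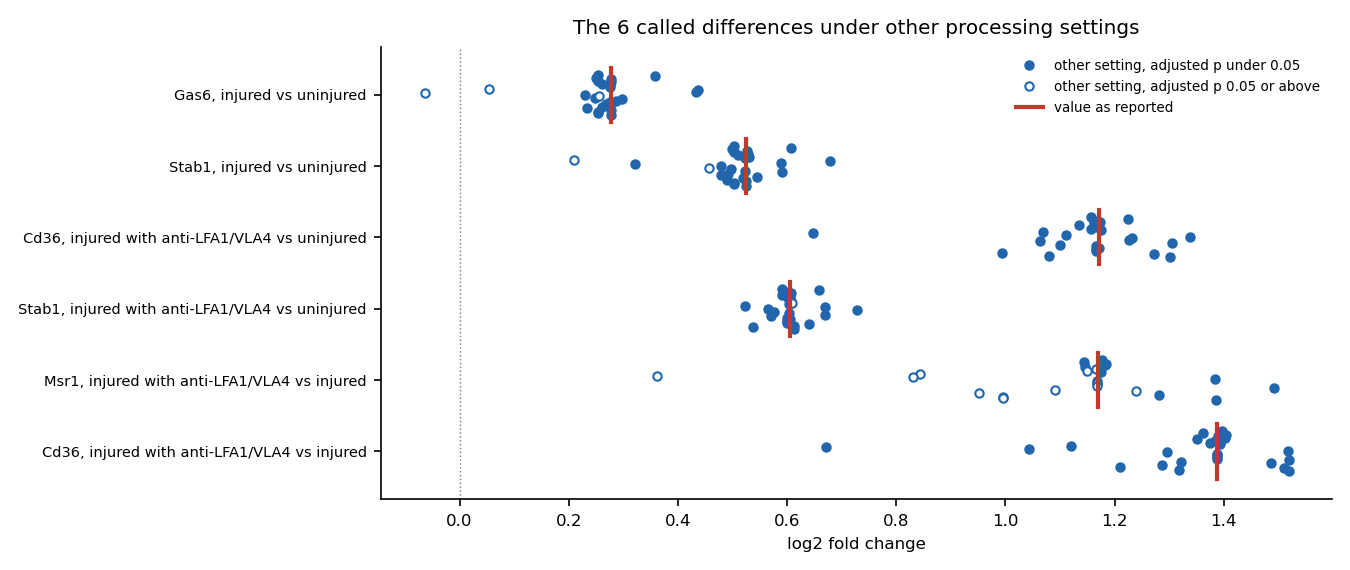
Log2 fold change (x axis) of the 6 called differences as reported (red line) and under each other processing setting or with 1 library left out (points, open where the adjusted p was 0.05 or above). Cd36 keeps filled points throughout, Gas6 has 1 point below 0, and Msr1 has 12 open points.

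Reads that cross an exon junction differed between libraries for these genes. For Mertk they made up 26.3 to 35.6% of exon reads in uninjured, 26.2 to 32.4% in the injured and 10.6 to 29.0% in antibody-treated libraries. Antibody-treated replicate 4 had the lowest share for each of the 7 genes with at least 200 exon reads in every library. For Pros1 (15.0 to 29.9%) and Scarb1 (31.3 to 36.1%) the antibody-treated libraries lay below all 8 others. Over all genes the share was 25.2 to 26.2% in uninjured, 27.5 to 30.9% in the injured and 22.6 to 25.7% in antibody-treated libraries, also lowest in antibody-treated replicate 4. Intron reads of Mertk, which were 29.1 to 32.7% of its exon and intron reads in antibody-treated against 22.3 to 26.1% in the other libraries, were higher in antibody-treated than in injured mice (log2 fold change 0.45, adjusted p = 0.0265), while its exon reads gave -0.10. The annotated RNAs Gm14011, on the opposite strand, and Gm23172, on the same strand, lie within Mertk. Whether these shares bear on the exon results was not tested.

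**Figure D4:**
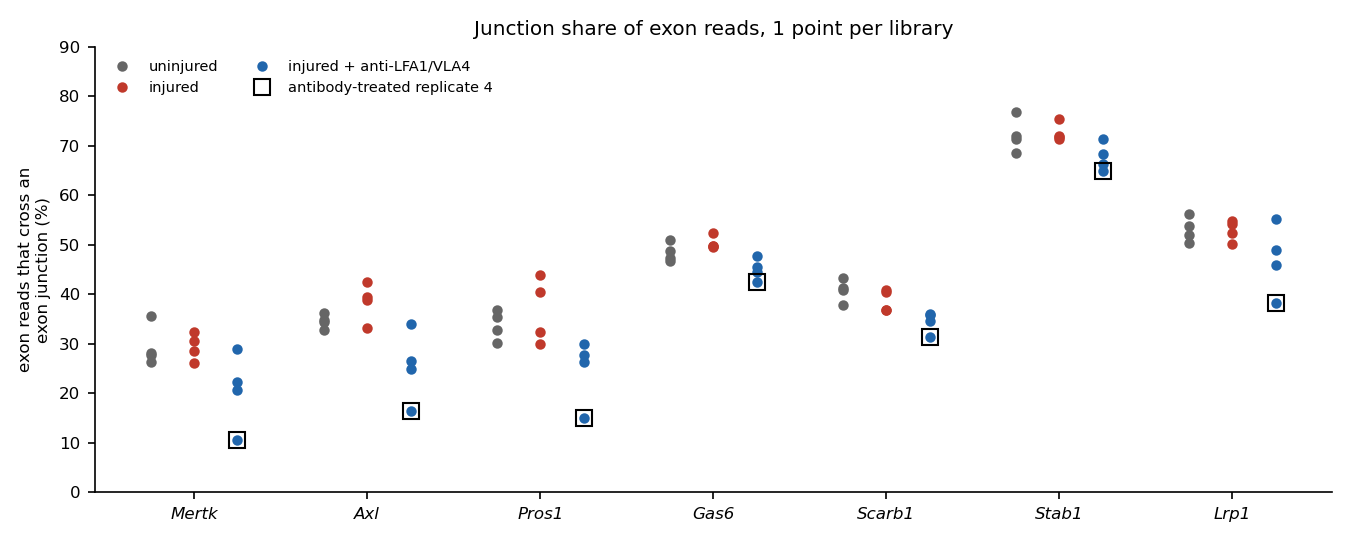
Share of exon reads that cross an exon junction (y axis, percent) for the 7 genes with at least 200 exon reads in every library, 1 point per library. The boxed antibody-treated replicate 4 is lowest for every gene, and its distance from the other libraries is widest for Mertk, Axl and Pros1.

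Other genes of the same processes came from 6 lists. Their counts stand beside 11.9% of all genes called higher and 11% lower after injury. The shares were 6.3% and 3.22% in antibody-treated against uninjured, and 10.9% and 10.7% in antibody-treated against injured mice. From a count near these shares nothing is read as a property of its list. Among other phosphatidylserine receptors and bridging molecules, 15 of 20 were tested: 8 were higher and 1 lower after injury, 8 were higher and 0 lower in antibody-treated against uninjured mice, and 2 were higher and 2 lower in antibody-treated against injured mice, with median log2 fold changes of 0.31, 0.43 and 0.14. After injury the leading genes were the integrin subunit Itgb5 (0.56, SE 0.07), the lipid sensor Trem2 (0.93) and the complement subunit C1qa (0.99). The 1 lower gene was another integrin subunit, Itgav (-0.62), so the integrin members of this list did not move together. In antibody-treated against uninjured mice they were the bridging protein Anxa1 (1.73, SE 0.18), Itgb5 (0.58) and C1qc (0.90). Against injured mice Adgrb1, the receptor BAI1, fell by 0.49, while Anxa1 (1.09) and the inhibitory receptor Cd300a (0.63) rose. With the GC and length trend removed the list had 6 higher and 4 lower members after injury, and 7 higher and 0 lower in antibody-treated against injured mice. With 1 library left out, 2 to 5 of the 15 genes were higher in that last comparison, and 5 only without antibody-treated replicate 3. Cd300lf, which did not pass the low-count filter on total exon reads of all 12 libraries, was called higher there in addition each time.

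Among other scavenger receptors, 14 of 16 were tested, and 6, 8 and 5 were higher in the same order of comparisons with 0 lower, with medians of 0.37, 0.70 and 0.37. At an unadjusted p under 0.05, edgeR had 1, 0 and 0 lower, DESeq2 called 1, 0 and 0 lower and limma voom called none. Cd5l, a soluble scavenger protein secreted by macrophages, rose by 1.57 after injury, by 2.94 in antibody-treated against uninjured and by 1.37 in antibody-treated against injured mice. Clec7a, the glucan receptor dectin-1, rose by 0.95, 2.17 and 1.22. Cxcl16, a membrane-bound chemokine that also binds oxidised lipoproteins, rose by 1.18 after injury, the endosomal protein Cd68 by 1.02 in antibody-treated against uninjured mice, and the ferritin receptor Scara5 by 1.91 in antibody-treated against injured mice. The macrophage and fibroblast markers given above moved with this list too, and their part was not tested. With the GC and length trend removed 4 members were higher and 2 lower after injury.

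The LDL receptor family and the ligands of Lrp1 had 4 higher and 1 lower of 13 after injury, 4 higher and 0 lower in antibody-treated against uninjured and 1 higher and 1 lower in antibody-treated against injured mice. A2m, the protease inhibitor cleared by Lrp1, rose by 0.93, 1.46 and 0.53 (SE 0.07 in each). Apoe, the main lipid carrier of brain, rose by 0.84 after injury and by 0.89 in antibody-treated against uninjured mice. Vldlr fell by 0.38 after injury, Plat rose by 0.26 in antibody-treated against uninjured mice, and Lrp4 fell by 0.35 in antibody-treated against injured mice. The medians of the list were -0.11, -0.13 and 0.05. After removal of the GC and length trend it had 3 higher and 4 lower members after injury. Leaving out 1 library gave 2 to 4 higher and 0 to 2 lower after injury, and 2 to 4 and 0 to 3 in antibody-treated against uninjured mice. The calls of Vldlr, Plat and Lrp4 were lost in 7, 12 and 11 of 27 alternative settings, and Plat and Lrp4 changed sign on intron reads.

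The engulfment machinery had 3 higher and 3 lower of 16 after injury, 3 higher and 0 lower, and 4 higher and 4 lower, with medians of 0.04, 0.08 and 0.12. Of all genes 11.9% were called higher and 11% lower, 6.3% and 3.22%, and 10.9% and 10.7% in the same order. Tyrobp, the adaptor of Trem2, rose by 0.79 after injury and by 1.14 in antibody-treated against uninjured mice, where Rac2, the leukocyte form of Rac, rose by 1.10 and Dock2 by 0.72. Cd47, the signal that inhibits engulfment, fell by 0.36 after injury, as did Crk by 0.34. Against injured mice Cdc42 (0.26), Rac2 (0.64) and Rac1 (0.22) rose. After removal of the same trend the engulfment list had 2 higher and 2 lower members after injury, with a median of -0.05, and 3 higher and 3 lower in antibody-treated against uninjured mice. Leaving out 1 library gave 1 to 3 higher and 0 to 3 lower after injury, 0 to 3 lower in antibody-treated against uninjured mice, and 3 to 6 higher and 0 to 4 lower against injured mice. In that last comparison only the compared groups gave 2 higher and 0 lower. Dock2 lost its call in 11 and Crk in 10 of 27 settings, and Crk and Cd47 changed sign after injury on intron reads, as did Rac1 against injured mice. Genes of lipid and cholesterol handling were higher in 6 and lower in 1 of 18 after injury, 6 and 0 in antibody-treated against uninjured, and 4 and 4 in antibody-treated against injured mice, with medians of 0.14, 0.21 and 0.07. After injury the transporter Abca7 rose by 0.51, Nr1h2, the oxysterol receptor LXR beta, by 0.34 (with the opposite sign once the GC and length trend was removed), and lipoprotein lipase Lpl fell by 0.42. The lipid droplet protein Plin2 (0.85), lysosomal lipase Lipa (0.41) and Ch25h (1.82), which makes 25-hydroxycholesterol, rose in antibody-treated against uninjured mice, where Lipa took the opposite sign on intron reads. Against injured mice Lpl (0.73) and Lipa (0.48) rose, and Abca7 fell by 0.52. After removal of the GC and length trend the lipid list had 3 higher and 0 lower members after injury and 5 and 0 against injured mice, and log2(TPM + 0.1) gave 10 higher after injury. Leaving out 1 library gave 1 to 6 higher after injury, lowest without injured replicate 4, and 2 to 4 higher and 1 to 4 lower against injured mice.

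Proteases that shed receptors such as Mertk and Axl, and their inhibitors, had 2 higher and 2 lower of 8 after injury, 1 higher and 0 lower, and 2 higher and 1 lower, with medians of -0.16, -0.01 and 0.14. Adam10 fell by 0.55 after injury and rose by 0.47 in antibody-treated against injured mice, and Adam15 rose by 0.36 and fell by 0.25. Both differences between antibody-treated and injured mice took the opposite sign on junction reads. The inhibitor Timp1 rose by 0.94, 2.11 and 1.17. The rise of Timp1 after injury was lost in 11 of 26 alternative settings, 8 of them the omission of a single library. Without the GC and length trend the shedding list had 0 higher and 4 lower members after injury. Leaving out 1 library gave 1 to 2 higher and 1 to 4 lower after injury, and 1 to 4 higher against injured mice. In antibody-treated against uninjured mice, where edgeR called no member of any of the 6 lists lower, the lower members at an unadjusted p under 0.05 were 1 phosphatidylserine receptor or bridging molecule, 2 of the LDL receptor family and ligands, 3 of the engulfment machinery, 1 of lipid handling and 2 of shedding. DESeq2 called the 3 of the engulfment machinery lower there, and limma voom called none.

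**Figure D5:**
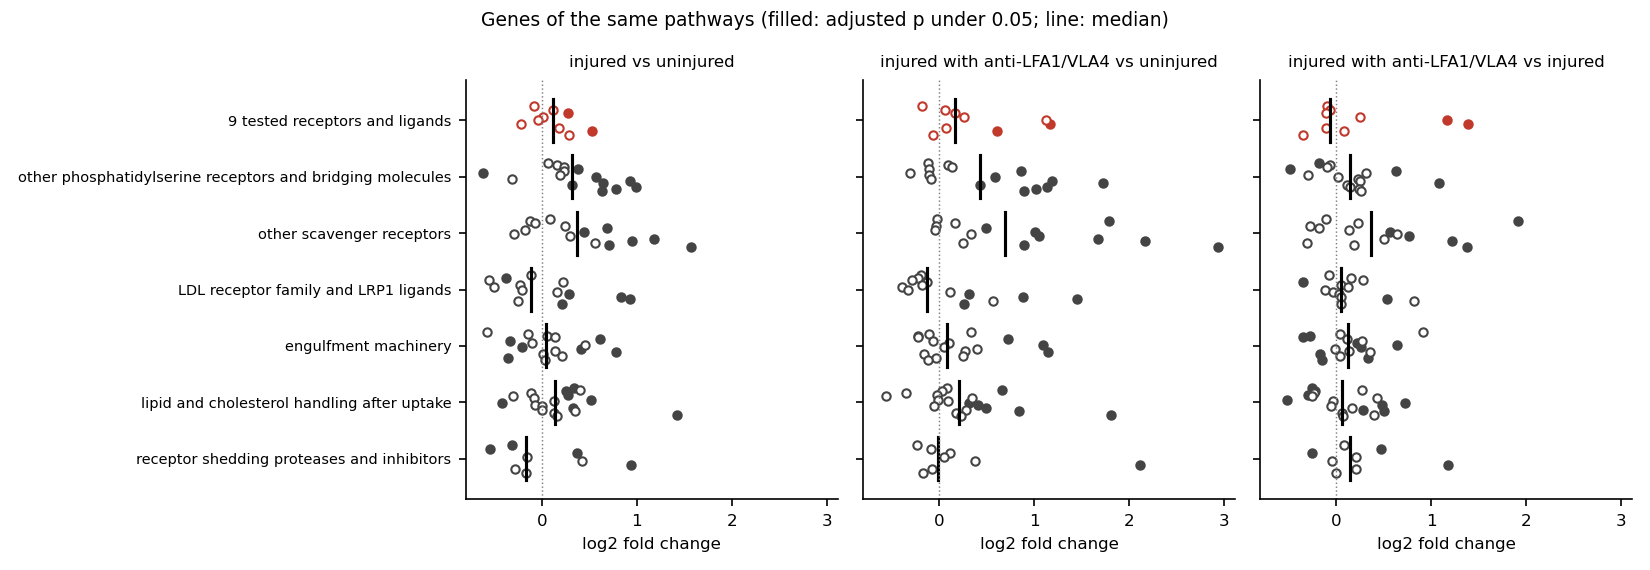
Log2 fold change (x axis) of each tested gene of the 9 receptors and ligands (red) and of the 6 pathway lists, in the 3 comparisons. Filled points passed an adjusted p of 0.05 and the vertical line is the median of the list, which for other scavenger receptors lies at 0.37, 0.70 and 0.37.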

How the data were processed

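Per the submitters' processing notes, the build was GRCm38 and the tools included Trimmomatic 0.39, FastQC 0.11.8 and CASAVA 1.8.2. For the aligner, the counter and its use of strand, nothing is given in the sources used here. Libraries were made from 500 ng of total RNA with a stranded total RNA kit, per the labels' protocols. The deposited tables hold read counts per gene over exons, introns and exon junctions, and TPM computed by the authors, which the deposited exon counts and lengths gave back. Total exon counts were tested with edgeR 4.0.16 in R 4.3.3: filterByExpr by group, TMM scaling, and 1 quasi-likelihood model of all 12 libraries by group (9 residual degrees of freedom). P-values were two-sided and Benjamini-Hochberg adjusted over the 14771 genes left, with a threshold of 0.05. Ratios were tested by exact permutation. The 10 genes, the 6 pathway lists and the 17 marker lists were chosen with earlier results of these data known, and their direction is no independent support. Named pathway genes are the 3 of smallest p among those called in each list and comparison, and Itgav, added as the lower member of its list after injury. Named neighbours are the 2 genes with the highest Pearson r of log2 CPM (prior count 2) over 12 libraries, a description without a test, passing over clone, predicted and pseudogene names. One such neighbour is not reported here. Alternatives used DESeq2 1.42.0, limma 3.58.1 and mgcv 1.9.3, and junction reads were added after seeing the data. The setting with the GC and length trend removed also subtracted each library's mean shift in log2 CPM, on top of TMM. Its calls, counts and signs therefore do not show the effect of GC and length alone. Gene positions were the same in GENCODE M21. The code was tested on simulated counts.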

Additional observations from a re-analysis of the deposited data

How the results depend on the processing

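Over 27 alternative settings, 626 of 717 recomputed log2 fold changes of the 9 tested genes kept their direction and their side of the threshold, 17 lost a call, 24 gained one and 50 changed sign. The 2 Cd36 calls were kept in all 26 settings that tested it. After injury the number of the 9 genes called higher was 2, against 4 with library size alone, 4 with limma on log2(TPM + 0.1) or log2(TPM + 1), 1 once the GC and length trend was removed, 0 on intron or junction reads. In antibody-treated against uninjured mice it was 2, against 0 on intron reads, and 3 with library size alone (Pros1), once the GC and length trend was removed (Msr1), and without antibody-treated replicate 3 (Gas6) or 4 (Msr1). In antibody-treated against injured mice it was 2, against 1 with a filter of 1 CPM in 4 libraries, only the compared groups, the replicate block, intron reads, junction reads and both TPM scales. On intron reads that 1 gene was Mertk (0.45, edgeR adjusted p = 0.0265), and neither Cd36 nor Msr1 could be tested there. The number called lower in that comparison was 0, against 1 with library size alone, 1 on intron reads and 2 on both TPM scales. Leaving out 1 library at a time gave 1 to 3 higher and 0 to 1 lower in antibody-treated against injured mice and 0 to 1 lower in antibody-treated against uninjured mice. These left-out counts move with Msr1 (higher), with Pros1 without injured replicate 1 (higher), with Lrp1 without uninjured replicate 1, injured replicate 2 or antibody-treated replicate 3 (lower), and with Mertk without antibody-treated replicate 3 (lower). The ratio of Axl to Mertk changed sign on intron reads, to -0.62 against uninjured and -0.79 against injured mice. Except where a construction is named, the cause was not tested.

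Signs that changed were mostly of differences near 0. After injury Pros1 was -0.0087 with DESeq2 size factors, -0.010 with no filter, -0.0091 by DESeq2 and -0.0028 with only the compared groups. Mertk was 0.0032 with library size alone, and 0.083 and 0.080 on the TPM scales. Msr1 was 0.037 with library size alone, 0.034 and 0.025 on the TPM scales and 0.26 once the GC and length trend was removed. That trend removal also gave -0.10 for Axl, -0.064 for Gas6 and 0.068 for Cd36 after injury, -0.0098 for Axl, -0.0096 for Gas6, -0.073 for Scarb1 and 0.065 for Lrp1 in antibody-treated against uninjured mice, and 0.086 for Axl and 0.055 for Gas6 against injured mice. Intron reads gave 0.42 for Mertk, -0.45 for Gas6 and 0.36 for Lrp1 against uninjured, and 0.45 for Mertk, -0.048 for Pros1, 0.043 for Scarb1 and 0.020 for Lrp1 against injured mice. Junction reads gave -0.18 for Axl against uninjured, and 0.030 for Gas6, -0.034 for Pros1 and 0.0093 for Scarb1 against injured mice. The TPM scales gave -0.075 and -0.066 for Stab1 against injured mice. Without the libraries at both ends of the first principal component, Lrp1 was 0.087 against uninjured and Axl 0.00079 against injured mice. With 1 library left out, the ranges that crossed 0 were -0.098 to 0.049 for Pros1 and -0.37 to 0.17 for Msr1 after injury, -0.20 to 0.022 for Lrp1, -0.0018 to 0.14 for Scarb1 and -0.0027 to 0.12 for Axl against uninjured, and -0.10 to 0.0026 for Axl against injured mice.

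Same-numbered libraries of different groups correlated at -0.53 to 0.43, so the numbers were not taken to pair mice. With the replicate block the calls fell to 1278 higher and 1265 lower after injury, 682 and 213 in antibody-treated against uninjured, and 1235 and 1123 against injured mice, and Msr1 lost its call against injured mice (adjusted p = 0.0510). Counts over all genes depend strongly on scaling. The removal of the GC and length trend is counted here as a scaling, since it also shifts each library's mean. Of the calls after injury 51.9% were higher, against 76.0% with library size alone, 93.6% on log2(TPM + 0.1) and 12.9% once the GC and length trend was removed, where the median of all genes was 0.03, 0.11, 0.18 and -0.09. The counts behind these shares were 1764 higher and 1632 lower, 3157 and 995, 4864 and 334, and 471 and 3170. In antibody-treated against uninjured mice 66.2% of 931 higher and 476 lower calls were higher, against 86.3% (1267 and 201), 87.3% (990 and 144) and 21.5% (919 and 3363). Against injured mice 50.5% (1612 and 1581) were higher, against 43.8% (1385 and 1779), 15.6% (649 and 3500) and 56.5% (1405 and 1083). Intron reads gave 16 and 39, 53 and 23, and 609 and 462 calls, and junction reads 48 and 18, 257 and 45, and 329 and 178. Only the compared groups gave 2250 and 2511, 650 and 232, and 1058 and 1072. DESeq2 called 883 lower in antibody-treated against uninjured mice, and 517 higher and 244 lower without the end libraries. Leaving out 1 library gave 685 to 2431 higher and 580 to 2417 lower after injury, 640 to 2054 and 213 to 1915 against uninjured, and 1053 to 1957 and 837 to 1816 against injured mice, with antibody-treated replicate 3 behind both highest counts against uninjured mice. Of 97 called differences of pathway genes 15 were kept in every setting, and 24 changed sign in at least 1: 17 on intron reads, 5 after removal of the GC and length trend, 2 on junction reads. Depth limits Msr1, Cd36 and Marco most, and Msr1 could not be tested on intron or junction reads.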

Other observations

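Values of further marker lists, and more of the microglia and thalamus lists, follow. Of all genes 11.9% were called higher and 11% lower after injury. The shares were 6.3% and 3.22% in antibody-treated against uninjured, and 10.9% and 10.7% in antibody-treated against injured mice. From counts near these shares nothing is read about a cell type. The microglia gene P2ry12 fell by 0.77 after injury and rose by 0.55 in antibody-treated against injured mice, and Gpr34 fell by 0.48 and rose by 0.57. Choroid plexus markers were higher in 7 of 7 in antibody-treated against injured mice and lower in 3 of 7 after injury. Their summed level was 1845 to 2396 TPM in uninjured, 1674 to 2211 in injured and 2318 to 3505 in antibody-treated libraries. Nearly all of that sum was Ttr, with a mean of 2113, 1975 and 2829 TPM in the same order. Of the 8 thalamus markers 5 were higher after injury and 7 in antibody-treated against uninjured mice, while of the 8 striatum markers 4 were lower after injury and 4 were higher in antibody-treated against injured mice. After injury 2 of 8 astrocyte markers were higher, 2 of 7 oligodendrocyte and 2 of 8 pericyte and smooth muscle markers were lower, and 2 of 7 neuron markers were higher and 3 lower. Of 7 T cell markers 2 were tested, and 1, Cd4, was lower in both injured groups against uninjured mice. Cd4 had 988, 794 and 722 reads over the uninjured, injured and antibody-treated groups. The rest of the list went the other way, with few reads. In the same order Cd3d had 1, 8 and 16, Cd3e 3, 6 and 5, and Cd3g 4, 6 and 13. Cd8a had 2, 6 and 5, Trac 19, 29 and 39, and Lck 66, 112 and 78. No fall of T cells is read from the Cd4 call.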
